A study of Homo sapiens with 6 samples.

Results

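Acute phase proteins are plasma proteins whose level moves with inflammation, and 9 genes that encode such proteins are described here: HP, HPX, ORM1, ORM2, SAA1, SAA2, SAA4, CRP and LBP. They were taken by symbol from the 20030 genes of the deposited count table, and all 9 were found. HepG2 cells, a human hepatoma line in long use with many hepatocyte functions left, gave the RNA. Cells of the sh-ctrl group (3 libraries) carried a control shRNA and cells of the sh-KIF11 group (3 libraries) carried an shRNA against KIF11, the mitotic kinesin that pushes spindle poles apart. An shRNA is a short hairpin RNA that directs cleavage of a matching mRNA. Both hairpins were delivered stably with the lentiviral vector pLKO.1 followed by puromycin selection, and no cytokine is named for either group in the labels. Whether the cells were a pool or 1 clone is not given in the sources used here. The knockdown columns of the tables are named only as shRNA and were taken as sh-KIF11, since the labels list no other hairpin. Nothing in the labels says that the libraries of a group came from separate cultures, so the p-values measure the spread between these libraries, which may be technical.

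Most acute phase proteins are made in hepatocytes and secreted into the blood. In inflammation, interleukin-6 acts through the receptor chain gp130 and the transcription factor STAT3, and interleukin-1 and TNF act through NF-kB and C/EBP factors. Together these signals raise the transcription of genes such as CRP, SAA1 and SAA2 very strongly, of HP, HPX, ORM1, ORM2 and LBP more moderately, and of SAA4 little, which is why SAA4 is called the constitutive serum amyloid A.

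Of the 9 genes, 5 had enough counts to be tested. In the count table HP, HPX, ORM1 and ORM2 were lower in sh-KIF11 and none was higher. Among all tested genes 34.7% were lower and 34.4% higher. HP and HPX, which bind free haemoglobin and free haem, fell the most, with estimates of 3.61-fold and 3.27-fold. The estimate for HPX rests on 11 to 55 counts per library and has a wide interval (log2 fold change -2.31 to -1.11). ORM1 and ORM2, a neighbouring gene pair that encodes the carrier protein orosomucoid, fell by nearly the same factor as each other. SAA4 fell on the FPKM scale only, and its levels in the 2 deposited tables differ widely. SAA1, SAA2, CRP and LBP were at or near 0 in both groups.

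The sequences below show the places where the reading of these values depends on the sequence. ORM1 and ORM2 are near-identical copies, with 603 coding bases each, 31 mismatches and 94.9% identity in the annotated transcripts. The stretch of their coding sequence from base 338 to base 397, read from GENCODE release 29 transcripts (GRCh38), is the 60-base window with the most differences, and its 14 mismatched bases are in capitals.
ORM1: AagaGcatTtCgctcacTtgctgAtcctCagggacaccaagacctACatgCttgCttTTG
ORM2: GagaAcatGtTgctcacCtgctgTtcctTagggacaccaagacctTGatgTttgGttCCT
Reads from this window can be told apart, but 33.7% of the 100-base windows of the ORM1 transcript occur unchanged in that of ORM2. The paper describes paired-end reads longer than these windows, so a smaller share of reads lies wholly in a shared stretch. That share was not computed, here or for the other gene copies below. How the counting treated reads from such stretches is not given in the sources used here, so the split of counts between the 2 genes is uncertain.

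Promoter windows from 250 bases before to 50 bases after the transcript start were present for 4 of the 9 genes in the RefSeq table (GRCh38.p14). They are shown since the inducible members are known for binding sites of C/EBP, STAT3 and NF-kB near their starts. Capitals mark matches, on either strand, to short motifs that are spelled out with their counts after the sequences.
ORM1, chr9:114322848-114323147, plus strand: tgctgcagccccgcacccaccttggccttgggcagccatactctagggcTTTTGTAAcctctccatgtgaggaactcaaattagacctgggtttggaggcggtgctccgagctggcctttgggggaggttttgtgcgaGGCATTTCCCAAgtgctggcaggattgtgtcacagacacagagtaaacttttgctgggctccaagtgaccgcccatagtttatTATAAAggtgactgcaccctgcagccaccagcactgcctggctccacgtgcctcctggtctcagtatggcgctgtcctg
HPX, chr11:6440938-6441237, minus strand: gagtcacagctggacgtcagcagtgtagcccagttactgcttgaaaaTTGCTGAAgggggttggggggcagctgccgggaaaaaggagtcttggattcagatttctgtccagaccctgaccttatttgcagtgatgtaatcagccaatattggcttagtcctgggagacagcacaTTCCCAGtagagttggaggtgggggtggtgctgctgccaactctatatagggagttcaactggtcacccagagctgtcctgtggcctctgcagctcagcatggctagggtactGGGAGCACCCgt
SAA4, chr11:18236753-18237052, minus strand: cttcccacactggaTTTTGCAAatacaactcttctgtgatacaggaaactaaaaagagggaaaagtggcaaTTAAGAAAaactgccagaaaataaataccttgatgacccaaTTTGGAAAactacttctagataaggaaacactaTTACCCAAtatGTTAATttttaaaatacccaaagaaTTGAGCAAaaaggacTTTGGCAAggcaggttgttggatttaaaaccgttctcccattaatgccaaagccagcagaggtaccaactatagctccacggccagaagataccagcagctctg
CRP, chr1:159714540-159714839, minus strand: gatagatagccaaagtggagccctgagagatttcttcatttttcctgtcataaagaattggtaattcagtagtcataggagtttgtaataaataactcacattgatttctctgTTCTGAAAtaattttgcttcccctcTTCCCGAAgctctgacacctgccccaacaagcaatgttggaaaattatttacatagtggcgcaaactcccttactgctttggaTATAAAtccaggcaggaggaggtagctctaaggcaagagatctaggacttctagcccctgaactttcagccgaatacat
The HPX window lies inside the span that GENCODE gives this gene, which also has a start further upstream. The C/EBP motif, searched as TTNNGNAA, matched in all 4 windows, 6 times in SAA4, 2 times each in ORM1 and CRP and once in HPX. It occurs in 36.9% of 34943 promoter windows of the same length. The TATA box, searched as TATAAA, stood 29 bases before the start in ORM1 and in CRP, and 11.6% of all windows hold it. HPX held the only type 2 element of the interleukin-6 response among the 4 windows, searched as CTGGGAA and present in 10.9% of all windows. NF-kB was searched as GGGNNNNNCC, which 58.6% of all windows hold. HPX had a match that reads on both strands, and that of ORM1 overlapped a C/EBP match. SAA4 held 1 core of the HNF1 site, searched as GTTAAT and present in 6.90% of all windows. The STAT motif TTCNNNGAA (7.66% of all windows) and the glucocorticoid receptor motif ACANNNTGT (5.38%) were not in these 4 windows. These matches describe letters and do not show that a factor binds there. HP, ORM2, SAA1, SAA2 and LBP are named only.

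**Figure D1:**
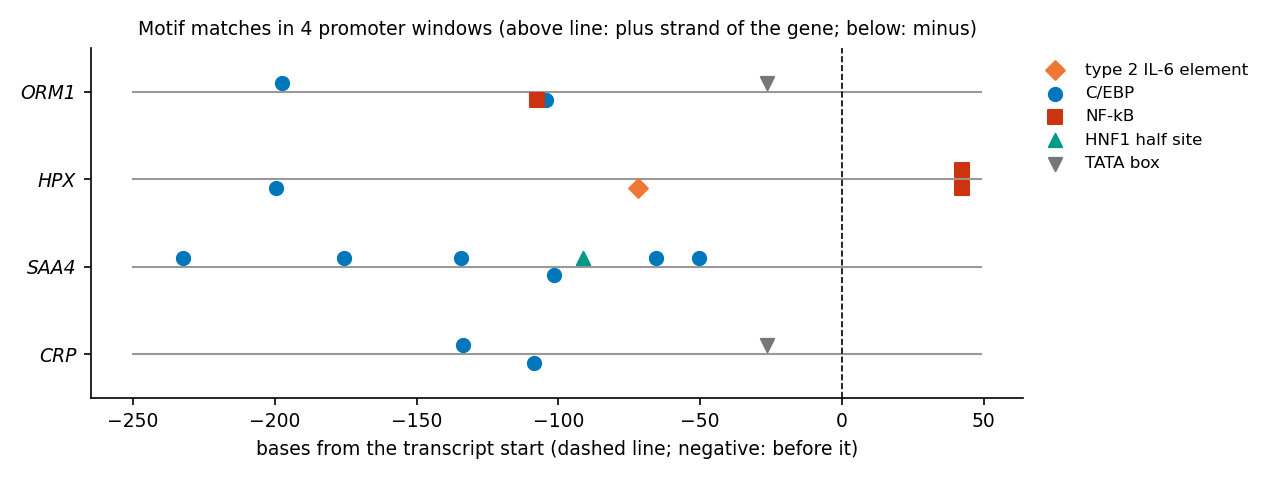
Motif matches in the 4 promoter windows, by distance in bases from the transcript start (dashed line), with plus-strand matches above and minus-strand matches below each line. SAA4 carries 6 C/EBP matches, while ORM1 and CRP carry 2 each and a TATA box before the start.

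Across the whole series, depth ranged from 18167773 to 19583282 counts per library. KIF11 itself had 1976, 2088 and 2039 counts under sh-ctrl against 1448, 1478 and 1240 under sh-KIF11, a log2 fold change of -0.75 (standard error 0.0573, adjusted p = 4.22e-15, edgeR, Benjamini-Hochberg). Of 12369 genes with enough counts to be tested, 69.1% passed an adjusted p of 0.05 in either direction, 34.4% higher and 34.7% lower in sh-KIF11. The labelled cell type was checked by 12 hepatocyte and hepatoma markers, and all 12 had over 3 counts in every library. Their summed level was 36200 to 37600 CPM (counts scaled to library size with TMM) in sh-ctrl and 17700 to 18600 CPM in sh-KIF11, and 11 of the 12 were lower by the same test. A change in the number of cells that make a transcript and a change in the RNA made per cell cannot be told apart in bulk libraries.

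Haptoglobin and haemopexin are the scavengers of the blood. HP encodes haptoglobin, which captures haemoglobin released from red cells, and occupies bases 72054592 to 72061055 of chromosome 16 (GRCh38, plus strand), inside the opposite-strand gene TXNL4B without sharing an exon base with it. It had 1235, 1580 and 1520 counts under sh-ctrl against 504, 425 and 447 under sh-KIF11. The groups were far apart, and the first sh-ctrl library was the lowest of its group. The level of HP was 82.3 ± 11.4 CPM (SD, n = 3) under sh-ctrl against 22.8 ± 2.29 CPM (SD, n = 3) under sh-KIF11. This is a 3.61-fold lower level, with a log2 fold change of -1.85 (95% interval -2.02 to -1.69, adjusted p = 5.99e-23, edgeR, Benjamini-Hochberg).

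The neighbour of HP, HPR (haptoglobin-related protein), is a copy with 95.6% identity over the aligned coding bases, and 12.9% of the 100-base windows of the HP transcript occur in it. HPR had 142, 144 and 155 counts under sh-ctrl against 86, 82 and 68 under sh-KIF11. It was also lower, with a log2 fold change of -1.10 (standard error 0.15, adjusted p = 2.45e-08 in edgeR). HPR was named after its values were seen.

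HPX encodes haemopexin, which carries free haem to the liver, and lies on chromosome 11 from 6431049 to 6442617 on the minus strand. Its level was low, with 55, 48 and 32 counts under sh-ctrl against 19, 17 and 11 under sh-KIF11. The groups did not overlap, but the spread within a group was wide. HPX was at 2.55 ± 0.602 CPM (SD, n = 3) under sh-ctrl against 0.775 ± 0.199 CPM (SD, n = 3) under sh-KIF11. The log2 fold change was -1.71 (95% interval -2.31 to -1.11, adjusted p = 2.74e-06, edgeR, Benjamini-Hochberg). On log2(FPKM + 1) the same gene gave -0.64 (adjusted p = 0.000159, limma), after passing the FPKM filter through sh-ctrl only. This is a scale on which the pseudocount of 1 is as large as the level of HPX and so shrinks its change.

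HP and HPX were also compared with each other within each library. There were 22.5, 32.9 and 47.5 HP counts per HPX count under sh-ctrl against 26.5, 25.0 and 40.6 under sh-KIF11. These ratios overlapped, and their log2 difference was -0.16 (95% t interval -1.20 to 0.89), with p = 0.7 in the exact permutation test, two-sided. With 3 libraries against 3 this test cannot give a p below 0.1, and the interval leaves room for a more than 1.5-fold difference either way.

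ORM1 and ORM2 encode orosomucoid (alpha-1-acid glycoprotein), a lipocalin that binds drugs and lipids in plasma. They lie side by side on the plus strand of chromosome 9, ORM1 from 114323056 to 114326475 and ORM2 from 114329869 to 114333252. ORM1 had 2868, 3190 and 2864 counts under sh-ctrl against 1992, 1857 and 2006 under sh-KIF11. ORM2 had 1530, 1650 and 1417 counts under sh-ctrl against 956, 1019 and 993 under sh-KIF11. For both genes each sh-KIF11 library was below each sh-ctrl library, and the sh-KIF11 libraries were close to each other.

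ORM1 was at 169 ± 7.99 CPM under sh-ctrl against 96.9 ± 6.34 CPM under sh-KIF11 (SD, n = 3 libraries each), with a log2 fold change of -0.80 (95% interval -0.91 to -0.69, adjusted p = 8.69e-17, edgeR). ORM2 was at 87.0 ± 3.89 CPM under sh-ctrl against 49.1 ± 1.36 CPM under sh-KIF11 (SD, n = 3 libraries each), with a log2 fold change of -0.83 (95% interval -0.95 to -0.71, adjusted p = 5.33e-16, same test). The pair kept its balance within the error. There were 1.87, 1.93 and 2.02 ORM1 counts per ORM2 count under sh-ctrl against 2.08, 1.82 and 2.02 under sh-KIF11. The log2 difference of this ratio was 0.02 (95% t interval -0.16 to 0.21), with p = 0.8 in the exact permutation test, two-sided. Reads shared by the copies bear on this ratio.

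The serum amyloid A genes lie in one cluster on chromosome 11. SAA1 is on the plus strand from 18266174 to 18269977, SAA2 on the minus strand from 18239223 to 18248643 and SAA4 on the minus strand from 18231349 to 18236893. SAA1 and SAA2 encode the inducible apolipoproteins of acute phase HDL, and their coding sequences differ at 11 of 366 bases, with 37.2% of the 100-base windows of the SAA1 transcript also in that of SAA2. SAA1 had 0 counts in all 6 libraries. SAA2 had 0, 0 and 2 counts under sh-ctrl against 1, 0 and 2 under sh-KIF11. A count of 0 allows up to 3 counts, or 0.153 to 0.165 CPM before TMM scaling, and covers counting error only. No ratio of SAA1 to SAA2 and no fold change is given, since both are at or under that limit in both groups.

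SAA4 is the member whose value depends on the table. In counts it had 6, 6 and 11 under sh-ctrl against 11, 7 and 10 under sh-KIF11. The groups overlapped, and edgeR gave a log2 fold change of 0.08 (95% interval -0.90 to 1.06, adjusted p = 0.887), an interval too wide to show a change of either direction. In FPKM, a value scaled to transcript length and library size, it had 78.3, 75.9 and 73.9 under sh-ctrl against 42.0, 40.2 and 45.5 under sh-KIF11. These values do not overlap and place SAA4 among the most abundant members. On log2(FPKM + 1) the change of SAA4 was -0.82 (standard error 0.0514, adjusted p = 1.1e-07, limma with Benjamini-Hochberg adjustment; 95% interval -0.94 to -0.71). On the same scale ORM1 gave -0.63 (95% interval -0.74 to -0.51) and ORM2 -0.65 (95% interval -0.74 to -0.55).

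The size of the gap between both tables was measured. At the counts per FPKM that are usual for a transcript of its length, the FPKM of SAA4 would stand for 1547, 1524 and 1388 counts under sh-ctrl against 801, 788 and 848 under sh-KIF11. The relative counts per FPKM of SAA4 were 0.00747, against 0.827 for HP, 1.06 for ORM1 and 1.02 for ORM2, where 1 is the median of genes that share no exon base. Of 10215 genes with a mean FPKM of 1 or more, 47 (0.46%) were at or below the value of SAA4. SAA4 shares 65.5% of its exon bases on the same strand with SAA2-SAA4, an annotated readthrough gene that joins both neighbours, and SAA2 shares 12%.

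The readthrough gene SAA2-SAA4 had 0 counts in every library and an FPKM of 0.493 in the first sh-ctrl library and near 0 in the others. Genes that share exon bases in this way had fewer counts per FPKM in general. The median relative value was 1 for 9640 genes with no shared base and 0.806 for 501 genes with up to 50 percent shared. It was 0.176 for 42 genes with over 50 and under 90 percent shared, and 0 for 32 genes with more. SAA4, at 0.00747, was low even among those 42 genes, whose lower quartile was 0.0142. HTSeq, a read counter that is among the tools in the submitters' notes, leaves out by default any read that could come from more than 1 gene. Whether that setting was used is not given in the sources used here, and its part in the value of SAA4 was not tested. SAA4 is therefore counted here as lower on the FPKM scale and as not resolved on counts.

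**Figure D2:**
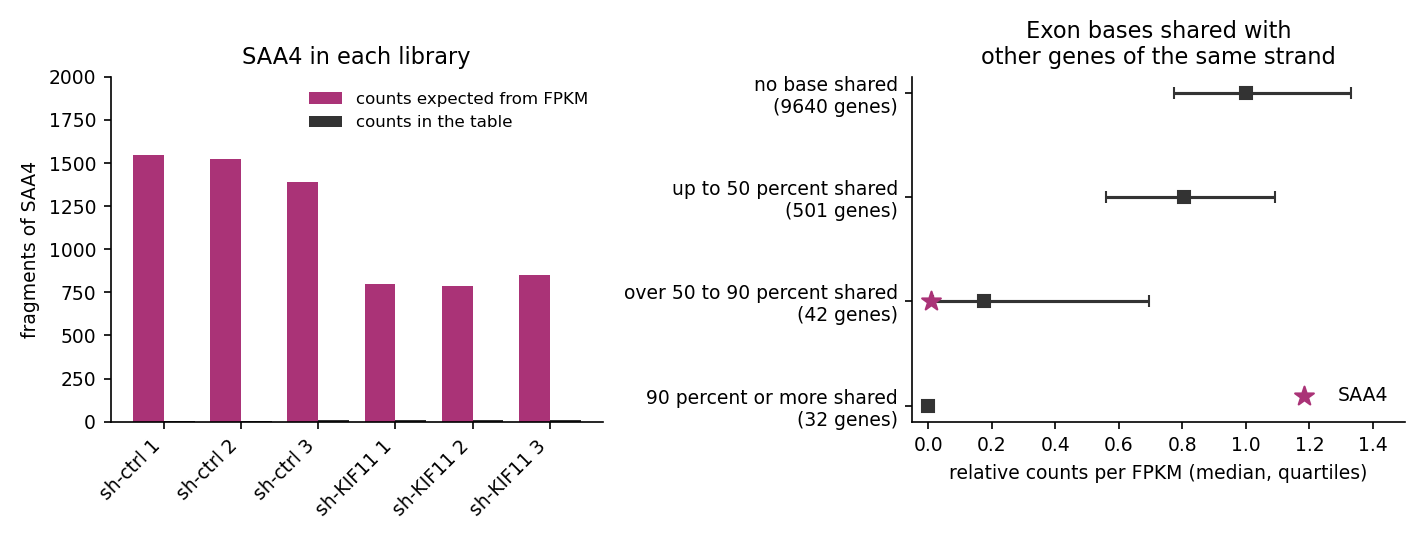
Left, fragments of SAA4 in each library as listed in the count table (6 to 11, too low to see as bars on this axis) and as computed from its FPKM (788 to 1547). Right, relative counts per FPKM (squares, medians; bars, quartiles) for genes by the share of exon bases that lie in other genes of the same strand; the star is SAA4.

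CRP and LBP are pattern recognition proteins. CRP encodes C-reactive protein, a pentraxin that binds phosphocholine on microbes and dying cells, and lies on chromosome 1 from 159712289 to 159714589 on the minus strand. It had 0 counts in all 6 libraries. LBP encodes the protein that hands lipopolysaccharide to CD14 and occupies bases 38346356 to 38377023 of chromosome 20 (plus strand). It had 2, 5 and 0 counts under sh-ctrl against 3, 3 and 4 under sh-KIF11, which overlap. Without the filter on low counts LBP gave a log2 fold change of 0.30 (adjusted p = 0.8, edgeR). CRP and SAA1, the classical markers of inflammation, were thus not detectable at this depth in either group.

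Read as a set, 5 of the 9 genes passed the filter on low counts, of which 4 were lower and 0 higher (adjusted p under 0.05, edgeR). All genes tested gave 34.7% lower and 34.4% higher. In HP, HPX, ORM1 and ORM2 the highest sh-KIF11 library was under the lowest sh-ctrl library in CPM, which held for 35.8% of all tested genes. The 5 tested members had a median of -0.83 (log2 fold change), beside 0.00 for all tested genes. On FPKM, HP, ORM1, ORM2 and SAA4 passed the filter in both groups and were lower, where 23.0% of 11173 tested genes were lower on that scale. HPX passed the FPKM filter only through sh-ctrl, where it is high, so it could enter only as lower and is not counted here. The members that did not pass the filter are low in both groups and are not counted in either direction. Scaling by library totals alone moved the median of all tested genes to 0.23, and the 4 called members stayed negative under it.

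Of all counts, the 9 genes together took 0.0296%, 0.0331% and 0.0319% under sh-ctrl and 0.0187%, 0.0174% and 0.0191% under sh-KIF11. The share was 0.0315% ± 0.00179 under sh-ctrl against 0.0184% ± 0.000891 under sh-KIF11 (SD, n = 3 each), without overlap. Most of it is ORM1, ORM2 and HP, and the near-absent counts of SAA4 hardly enter it.

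**Figure D3:**
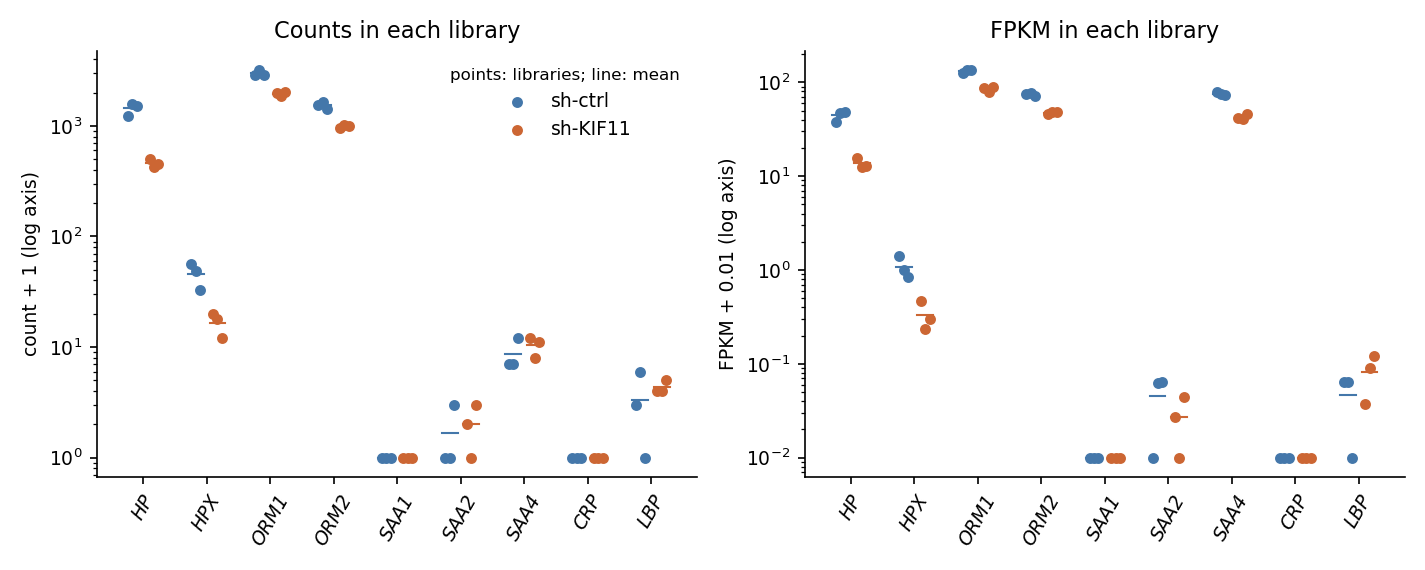
Counts (left, plus 1) and FPKM (right, plus 0.01) of the 9 genes in each library on log axes; points are libraries and short lines are group means. HP, HPX, ORM1 and ORM2 are separated between groups in both panels, SAA4 only in FPKM, where it was 73.9 to 78.3 in sh-ctrl and 40.2 to 45.5 in sh-KIF11.

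**Figure D4:**
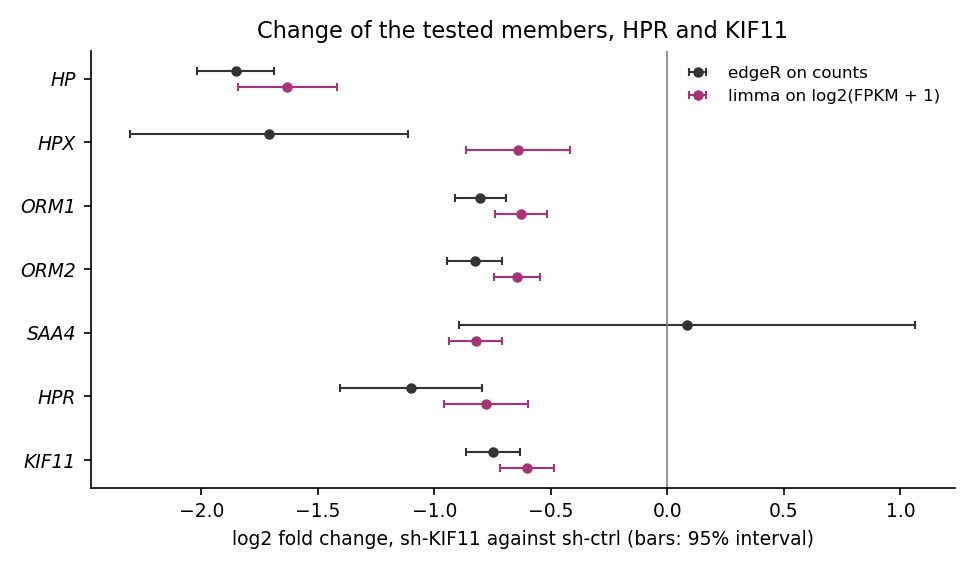
Log2 fold change of the 5 tested members, of HPR and of KIF11 with 95% intervals, from counts (edgeR) and from log2(FPKM + 1) (limma). SAA4 is the one gene whose interval on counts (-0.90 to 1.06) spans 0.

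Levels can be compared between the genes only per length, on FPKM. In sh-ctrl ORM1 stood first with 132 ± 4.48 FPKM, above 98.1% of the genes in the table. SAA4 (76.0 ± 2.18 FPKM) and ORM2 (74.6 ± 2.73 FPKM) came next and their libraries overlapped, so their order is not resolved. The place of SAA4 rests on FPKM alone in both groups, as it had only 6 to 11 counts per library. HP followed at 44.5 ± 5.93 FPKM and HPX at 1.08 ± 0.289 FPKM (SD, n = 3 for each of these).

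In sh-KIF11 the order was ORM1 at 85.0 ± 5.32 FPKM, ORM2 at 47.3 ± 1.12, SAA4 at 42.6 ± 2.70, HP at 13.7 ± 1.72 and HPX at 0.325 ± 0.12 (SD, n = 3 each). No neighbours among these 5 overlapped, but the lowest ORM2 library (46.0 FPKM) was just above the highest SAA4 library (45.5 FPKM). LBP and SAA2 were below 0.15 FPKM in every library and overlapped each other, and SAA1 and CRP were listed at 0. HP kept its place in this order but stood further below ORM1, with group means of 13.7 and 85.0 FPKM.

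The genes nearest in pattern were found by the root mean square distance between log2 CPM values over the 6 libraries, each centred on the sh-ctrl mean, among 11748 candidates. HP was nearest to APOC3, an apolipoprotein of triglyceride-rich particles, at a distance of 0.106. APOC3 was at 69.0 CPM in sh-ctrl and 17.8 CPM in sh-KIF11, with a log2 fold change of -1.96. HPX was nearest to C2CD4A at 0.181. ORM1 was nearest to C19orf12 at 0.0369 and ORM2 to the glycolytic enzyme ENO1 at 0.0252. For each of ORM1 and ORM2 575 candidates lay within 0.15, against 10 for HP, 3 for SAA4 and 0 for HPX. These numbers also depend on how far the libraries of a group spread, so they do not show how common a change is. On its 6 to 11 counts SAA4 was nearest to TRIM59 at 0.111.

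Other positive acute phase genes, whose proteins rise in inflammation, were counted next. Of 24 listed, 21 were tested, 18 were lower and 1 was higher, beside 34.7% lower and 34.4% higher among all tested genes. The median log2 fold change was -1.42, beside 0.00 for all tested genes. SERPINA3 (antichymotrypsin) was at 1000 ± 30.5 CPM in sh-ctrl and 168 ± 21.9 CPM in sh-KIF11, with a log2 fold change of -2.57 (adjusted p = 1.45e-32, edgeR). ITIH4 (-2.18) and the copper carrier CP (-2.08, adjusted p = 8.41e-25, edgeR) followed. ITIH4 had 34, 44 and 34 counts in sh-ctrl against 16, 6 and 6 in sh-KIF11. It passed the filter on low counts only with its sh-ctrl libraries, where it is high. The same holds for CD14, which is also among the 18 and was named after its values were seen. The fibrinogen chains FGA (-1.48), FGB (-0.96) and FGG (-1.49) were lower too and, like HAMP, were named after their values were seen. The exception was TIMP1, a metalloproteinase inhibitor made by many cell types, which was higher at 1.02 (adjusted p = 5.75e-16, edgeR). HAMP, the iron hormone hepcidin and a direct target of STAT3, gave 0.03 (adjusted p = 0.717).

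Negative acute phase genes are those whose proteins fall in inflammation. Of 16 listed, 14 were tested, 13 were lower and 0 higher, beside 34.7% lower and 34.4% higher among all tested genes. Their median was -1.35. The vitamin D carrier GC (-2.71, adjusted p = 6.78e-11), the iron carrier TF (-2.28, adjusted p = 2.43e-33) and APOA1 (-1.92, adjusted p = 1.02e-30, edgeR for all 3), the main protein of HDL, had the lowest values. The difference between the positive and the negative list was not tested. Several of these genes are also hepatocyte markers, so the lists are not independent.

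Genes of the signal paths upstream of the members were called about as often in each direction as all tested genes (34.4% higher and 34.7% lower). Of 23 genes of gp130 cytokine signalling 20 were tested, 6 higher and 6 lower, with a median of -0.08 that turned to 0.15 with library totals and 0.15 on log2(FPKM + 1). The cytokine IL11 went from 0.492 ± 0.0162 CPM in sh-ctrl to 8.44 ± 0.311 CPM in sh-KIF11 (log2 fold change 4.08). IL11 passed the filter on low counts only through sh-KIF11, where it is high, so it could enter only as higher. The cytokine CTF1 (1.25, adjusted p = 8.55e-06) and the kinase JAK2 (1.37, adjusted p = 1.38e-12, edgeR for both) rose too. The feedback inhibitor SOCS1 (-1.33, adjusted p = 3.21e-14), the shared receptor chain gp130 itself, IL6ST (-0.62, adjusted p = 1.99e-14), and OSMR (-0.45, adjusted p = 2.47e-10) fell. STAT3 gave -0.08 (adjusted p = 0.149, edgeR). SOCS3, a STAT3 target, gave -0.32 (standard error 0.334, adjusted p = 0.395) on 15 to 22 counts per library, so its change is not resolved. Both were named after their values were seen.

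Of 32 genes of interleukin-1, TNF and NF-kB signalling 27 were tested, 9 higher and 11 lower, with a median of -0.04 that turned to 0.19 with library totals and 0.11 on log2(FPKM + 1). These counts, too, are near the 34.4% higher and 34.7% lower of all tested genes. The receptor IL1R1 went from 122 ± 13.0 CPM to 49.1 ± 2.14 CPM (-1.32, adjusted p = 8.43e-22, edgeR), and its antagonist IL1RN (-1.17) and the adaptor TRAF2 (-0.44) fell too. IRAK4 (0.67) and MAP3K7 (0.58), kinases of this path, and IKBKG (0.80, adjusted p = 0.000161) rose. IKBKG varied widely in sh-KIF11 (21.5 ± 12.3 CPM, SD, n = 3) and has a near-identical pseudogene copy, so its value is uncertain.

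Transcription factors of the hepatocyte, listed together with genes of the glucocorticoid response, were mostly lower. Of 19 listed, 18 were tested, 13 lower and 2 higher, beside 34.7% lower and 34.4% higher among all tested genes. Their median was -0.43. CEBPD, the C/EBP factor that is itself induced in the acute phase, went from 40.4 ± 1.44 to 16.2 ± 1.97 CPM (SD, n = 3 each), or by a log2 fold change of -1.32 (adjusted p = 1.26e-17, edgeR). The bile acid receptor NR1H4 (-1.45) and FOXA3 (-0.93) were also among the lowest. CEBPB (-0.63), HNF4A (-0.47) and CEBPA (-0.36), named after their values were seen, were lower as well. The glucocorticoid receptor NR3C1 (0.97, adjusted p = 3.87e-16, edgeR) and TSC22D3, a glucocorticoid-induced gene (1.07), were the 2 that rose. TSC22D3 had 10, 15 and 13 counts in sh-ctrl against 30, 27 and 35 in sh-KIF11. It passed the filter on low counts only with its sh-KIF11 libraries, where it is high. Other glucocorticoid-induced genes of the list, PER1 (-0.40, adjusted p = 0.000223) and FKBP5 (-0.17, adjusted p = 0.00987), fell and were named after their values were seen. The C/EBP letters in the promoter windows shown above and these levels are given side by side, and no link between them was tested.

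Relatives and binding partners of the members were tested in 19 of 28 listed genes, with 11 lower, 5 higher and a median of -0.50, beside 34.7% lower and 34.4% higher among all tested genes. CD163, the macrophage receptor for the complex of haptoglobin and haemoglobin, had 0 counts in all libraries. HMOX1, which breaks haem down, was higher (0.48, adjusted p = 1.37e-09, edgeR), while its relative HMOX2 was lower (-0.50, adjusted p = 8.73e-10). BPIFB2, of the same protein family as LBP, went from 69.2 ± 2.15 to 2.22 ± 0.453 CPM (-4.96, adjusted p = 7.62e-34). The lipocalins LCN2 (-1.85) and APOM (-1.83), of the family of orosomucoid, fell. Of the other lipocalins listed, AMBP fell less (-0.35) and PTGDS gave 0.04 (adjusted p = 0.854, edgeR). The lipopolysaccharide receptor TLR4 had at most 3 counts in each sh-ctrl library and 2.32 ± 0.661 CPM in sh-KIF11. That is at least 13.6-fold higher than a floor of 3 counts per library. The TLR4 partner LY96 rose by 1.14, on 14, 9 and 22 counts in sh-ctrl against 38, 37 and 39 in sh-KIF11. TLR4 and LY96 passed the filter on low counts only with their sh-KIF11 libraries, where they are high. CD14, to which LBP hands lipopolysaccharide, went the other way (-1.78), with 25, 24 and 15 counts in sh-ctrl against 9, 8 and 4 in sh-KIF11. It passed that filter only with its sh-ctrl libraries, where it is high. HMOX2, AMBP, PTGDS and CD14 were named after their values were seen.

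The secretory route that carries these proteins out of the cell was tested in 32 genes, with 26 lower and 2 higher. Among all tested genes 34.7% were lower and 34.4% higher. The median of the list was -0.38, beside 0.00 for all tested genes. The signal peptidase subunit SEC11C (-0.98), the translocon-associated SSR2 (-0.85) and the oligosaccharyltransferase subunit RPN1 (-0.80) fell most. SRP9 (0.35) and SEC62 (0.15) were the 2 that rose.

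**Figure D5:**
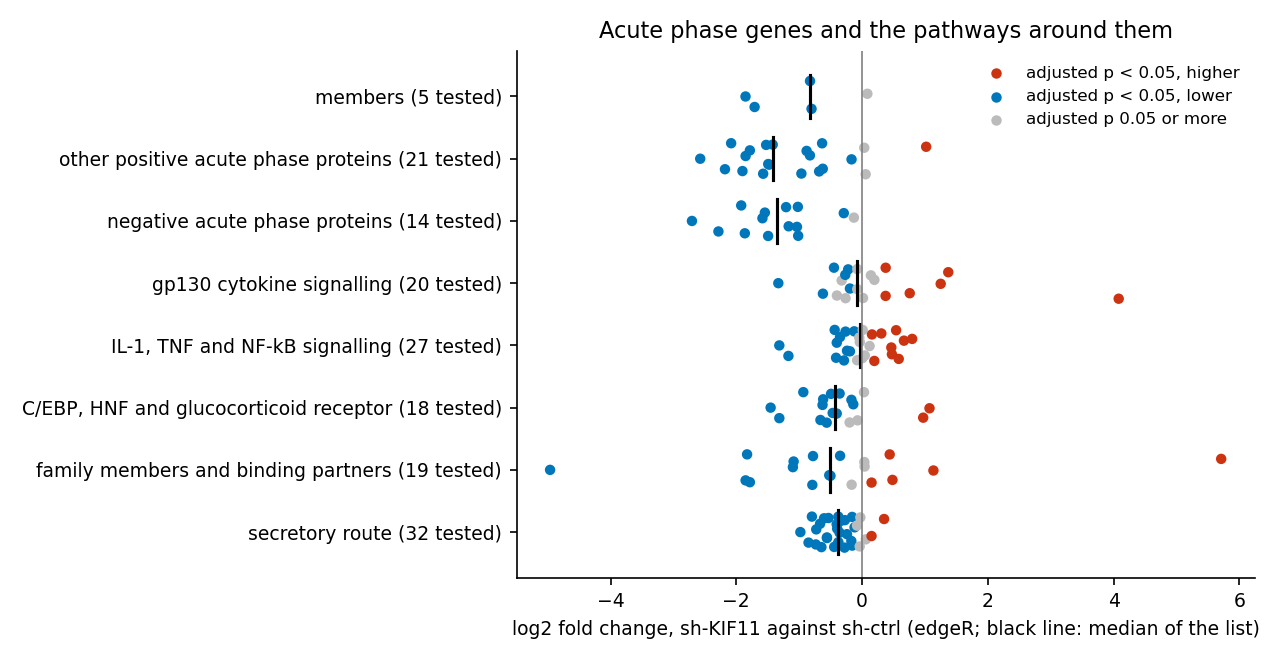
Log2 fold change of each tested gene in the acute phase lists and the lists of pathways around them (edgeR, sh-KIF11 against sh-ctrl), coloured by call, with the median of each list as a black line. Medians are -1.42 and -1.35 for other positive and for negative acute phase genes and near 0 for both cytokine lists; the point for TLR4, at the far right, is a fitted value and not a bound.

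Markers of other cell types were summed as well. Of 10 macrophage and leukocyte markers 4 had over 3 counts in every library, with a sum of 2630 to 3100 CPM in sh-ctrl and 602 to 730 CPM in sh-KIF11, and CD163, CSF1R and TYROBP were at 0. The leukocyte marker PTPRC had 1 count in 1 library of each group and 0 in the others. Most of the macrophage sum was LYZ, at 2610 ± 260 CPM in sh-ctrl and 511 ± 73.2 CPM in sh-KIF11. Of 8 fibroblast and stellate markers 2 were above 3 counts, with a sum of 93.3 to 97.5 CPM in sh-ctrl and 186 to 198 CPM in sh-KIF11, and LRAT and DCN were at 0. That rise was ACTA2 (1.03, adjusted p = 3.53e-21, edgeR), while PDGFRB fell (-1.16, adjusted p = 6.36e-05). Of 7 endothelial markers 2 were above 3 counts in every library, with a sum of 3.27 to 3.79 CPM in sh-ctrl and 7.72 to 8.92 CPM in sh-KIF11, and TEK was at 0. LYVE1 had at most 3 counts in each sh-ctrl library and 3.42 ± 0.621 CPM in sh-KIF11, at least 20.1-fold higher than a floor of 3 counts per library. VWF rose (1.01, adjusted p = 0.000342, edgeR) and PECAM1 gave -0.08 (adjusted p = 0.815). Of 6 cholangiocyte markers 4 were, with 1150 to 1280 CPM in sh-ctrl and 1400 to 1570 CPM in sh-KIF11. That rise was KRT19, a bile duct keratin, which went from 131 ± 8.45 to 663 ± 56.8 CPM (2.34, adjusted p = 8.18e-32, edgeR). The other 3 tested markers of this list fell, with a log2 fold change of -0.56 for SOX9, -0.55 for EPCAM and -0.29 for SPP1, and the median of the 4 was -0.42. Of these markers PTPRC and PECAM1 were named after their values were seen. The part of any of these markers in the lower levels of the 4 called members was not tested.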

How the data were processed

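Poly(A) RNA of 6 HepG2 libraries (3 sh-ctrl, 3 sh-KIF11) had been made into stranded libraries with a TruSeq kit. The authors deposited raw counts per gene, not normalized, and FPKM values of the same genes, which adjust for gene length and depth. The submitters' processing notes name bcl2fastq 1.8.4, Trimmomatic, HISAT2 2.1.0, HTSeq 0.9.1, Cufflinks 2.2.1, DESeq and GRCh38, with no role or order. Groups came from the sample labels, and no sample column was left unmapped.

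Counts were tested on the whole table in R 4.3.3 with edgeR 4.0.16 (TMM, filterByExpr, quasi-likelihood test, two-sided, Benjamini-Hochberg, threshold 0.05). The filter kept 12369 genes and left out 7661. The biological coefficient of variation was 4.87%. FPKM values were tested with limma 3.58.1 on log2(FPKM + 1), for genes with at least 0.5 FPKM in at least 3 libraries. A fold change on that scale understates the change of low genes. Ratios within libraries were tested by exact permutation over the 6 libraries. Alternatives were RLE, upper-quartile and library-total scaling, DESeq2 1.42.0, other filters, a pseudocount of 0.1, the replicate number as a block and each library left out. The edgeR fit with and without the replicate block, DESeq2 and limma with both pseudocounts were tested on simulated data. In these, 200 genes were changed by a log2 value of 1 and all genes had the same dispersion. The other scalings and filters and the fits with a library left out were not tested in this way.

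Gene positions, exon overlap and transcripts came from GENCODE release 29 (GRCh38), promoters from RefSeq (GRCh38.p14). Counts per FPKM were divided by the median of genes that share no exon base, after allowing for transcript length. The genes named are the 9 members, KIF11, up to 3 genes with the largest positive and up to 3 with the largest negative change among those called in each list, and the nearest gene in pattern to each tested member. Other genes were chosen after their values were seen, as marked. The members and lists were chosen with earlier results of these data known. Annotation columns in the deposited tables were not used.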

Additional observations from a re-analysis of the deposited data

How the results depend on the processing

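HP, ORM1 and ORM2 stayed lower in sh-KIF11 and past the threshold in each of the 15 alternatives. HPX did so in each alternative on counts. In the FPKM fits it passed the filter only through sh-ctrl and could enter only as lower. With single libraries left out, the log2 fold changes on counts of HP, HPX, ORM1 and ORM2, in this order, ran from -1.96 to -1.78, -1.88 to -1.53, -0.84 to -0.75 and -0.85 to -0.79. SAA4 turned from 0.08 on counts to -0.82 on log2(FPKM + 1) (adjusted p = 1.1e-07) and -0.84 on log2(FPKM + 0.1) (limma), and to -0.82 without the FPKM filter, an alternative added after seeing the data. Without single libraries SAA4 ran from -0.0767 to 0.46 on counts, never called, and from -0.8715 to -0.7841 on FPKM, added likewise (-0.8024 without the first sh-ctrl and -0.8144 without the first sh-KIF11 library). The number of members lower was 4 or 5 and of members higher 0 in all 22 settings. The 4 on counts were HP, HPX, ORM1 and ORM2. On FPKM without a sh-ctrl library the 4 were HP, ORM1, ORM2 and SAA4, since HPX then failed the filter. The 5 in the other FPKM settings include HPX, which passed the FPKM filter, where it was applied, only through sh-ctrl.

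Over all tested genes, 4254 were higher and 4294 lower. Library totals gave 6619 and 2378, and upper-quartile scaling 5014 and 3563. Limma gave 5101 and 2568 on log2(FPKM + 1) and 5075 and 2563 on log2(FPKM + 0.1). The difference of the log2 ratio of ORM1 to ORM2 ran from -0.0176 to 0.079 without single libraries. That of HP to HPX ran from -0.43 to 0.11 and was 0.0581 from FPKM, so neither has a direction. Without the 20 most abundant genes in the total, the share of the 9 members fell by 0.01505 percentage points from sh-ctrl to sh-KIF11.

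The replicate numbers did not pair the libraries, since deviations of same-numbered libraries correlated at 0.03, -0.0185 and -0.00253. With the replicate number as a block HP gave -1.85, and 4296 genes were higher and 4311 lower. No call of a member changed under this pairing. SAA1, SAA2, CRP and LBP had 5 counts or fewer in every library, too few to show a change, and reads shared by SAA1 and SAA2 may bear on their counts.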
